A study of Homo sapiens with 6 samples.

Results

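The genes described here encode the voltage-gated sodium channels, voltage-gated calcium channels, TRP cation channels of the C, M and V groups, and the PIEZO channels, which open under membrane stretch, measured in U251MG, a human glioblastoma line. The members are the protein-coding genes whose symbols follow the family names SCN, CACNA1, CACNA2D, CACNB, CACNG, TRPC, TRPM, TRPV and PIEZO, and 62 of the 28395 genes in the count table met this rule. Bulk mRNA-seq was available for 3 WT libraries and for 3 NUAK2-CR libraries, whose cells had the kinase gene NUAK2 targeted by lentiviral CRISPR-Cas9. According to the methods, cells carrying both fluorescent vectors were sorted into plates and grown as clones, whereas no clone is given in the labels of the 3 NUAK2-CR libraries. The WT cells are described in the labels only by genotype, and no control vector is named for them. The p-values therefore measure the spread between these libraries, which may be technical, and a difference between WT and NUAK2-CR cannot be told apart from a difference between a clone and its parental population.

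Voltage-gated sodium channels are built from a large pore-forming alpha subunit and small beta subunits that modify gating and adhesion. Voltage-gated calcium channels pair an alpha1 pore with an intracellular beta subunit and an extracellular alpha2delta subunit, and most of the gamma-named proteins instead accompany AMPA-type glutamate receptors. TRP channels pass cations in response to lipids, temperature, osmotic change and receptor signals, and in glioma cells calcium entry is linked to migration and proliferation.

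Totals ranged from 35310946 to 55574081 counts in the WT libraries and from 29648445 to 33776712 in the NUAK2-CR libraries. NUAK2 itself was between 1457 and 1926 normalized counts (counts scaled to a common library size, given below in the order of replicates 1 to 3 wherever 3 values follow each other) in WT and between 799 and 961 in NUAK2-CR, with a log2 fold change of -0.93 ± 0.11 (SE). The 100 tested genes nearest to NUAK2 on chromosome 1 had a median log2 fold change of -0.44, which would leave NUAK2 at -0.49. The first principal component of all tested genes held 79.6% of the variance. Of 8 tested astrocyte and glioma markers 6 were lower in NUAK2-CR and none was higher, with summed levels of 8845 to 9787 CPM (counts scaled to the library size) in WT and 3863 to 4044 in NUAK2-CR. For this and the marker counts that follow, 28.2% of all tested genes were lower and 26.3% higher. GFAP fell by 2.56 on the log2 scale, and the defining astrocyte water channel AQP4 had at most 2 counts in any library. Of 5 neuronal markers 1 was higher, the vesicle fusion gene SNAP25, and the summed level went from between 17.6 and 20.9 CPM to between 38.3 and 40.6 CPM. The microglial markers AIF1 and CX3CR1 and the oligodendrocyte marker MOG had no count, while CSF1R and MBP were lower in NUAK2-CR. Summed microglial markers went from between 5.38 and 6.33 CPM to between 1.02 and 1.20 CPM, with 1 of 1 tested lower, and summed oligodendrocyte markers from between 3.12 and 4.30 CPM to between 1.02 and 1.38 CPM, with 1 of 2 tested lower. Of 3 endothelial markers 2 were higher, of which PECAM1 passed the filter through the NUAK2-CR libraries alone, and their summed level was at most 0.832 CPM in WT and 2.40 CPM in NUAK2-CR. All libraries come from the U251MG line, so these markers describe expression within that line. The part of the marker differences in the channel results was not tested. In bulk RNA, fewer cells that express a marker and less of its RNA per cell cannot be told apart.

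The question of the comparison was which channel genes differed in expression between NUAK2-CR and WT cells. Of the 62 genes, 32 passed the filter on low counts and were tested with edgeR's quasi-likelihood test over 14873 genes. An adjusted p-value under 0.05 was reached by 17 of the 32, or 53.1%, while 54.5% of all tested genes did. The 11 genes higher in NUAK2-CR made up 34.4% of the tested members, against 26.3% of all tested genes, and the 6 lower genes 18.8% against 28.2%. The threshold used in the study also asks for a log2 fold change beyond 2 in either direction, and 5 members, or 15.6%, met it, against 4.72% of all tested genes. These were SCN4B, CACNA1D and TRPV3, which were lower in NUAK2-CR (2.83% of all tested genes were lower at this threshold), and CACNA1C and PIEZO2, which were higher (1.89%). Beyond a log2 fold change of 1 in either direction there were 8 of 32, while the share over all tested genes was 13.9%. The median log2 fold change was 0.09 over the tested members and -0.01 over all tested genes. Passing the filter did not require counts in both groups, and 4 of the tested members, SCN4B, CACNA1D, TRPV3 and CACNA2D3, passed through the WT libraries alone, so that their direction was set in part by the filter. WT and NUAK2-CR libraries did not overlap for 18 of the 32 members, or 56.2%, against 61.4% of all tested genes. The plot of normalized counts by library shows 7 of the 8 members beyond a log2 fold change of 1, and the plot of fold changes by family 30 of the 32.

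**Figure D1:**
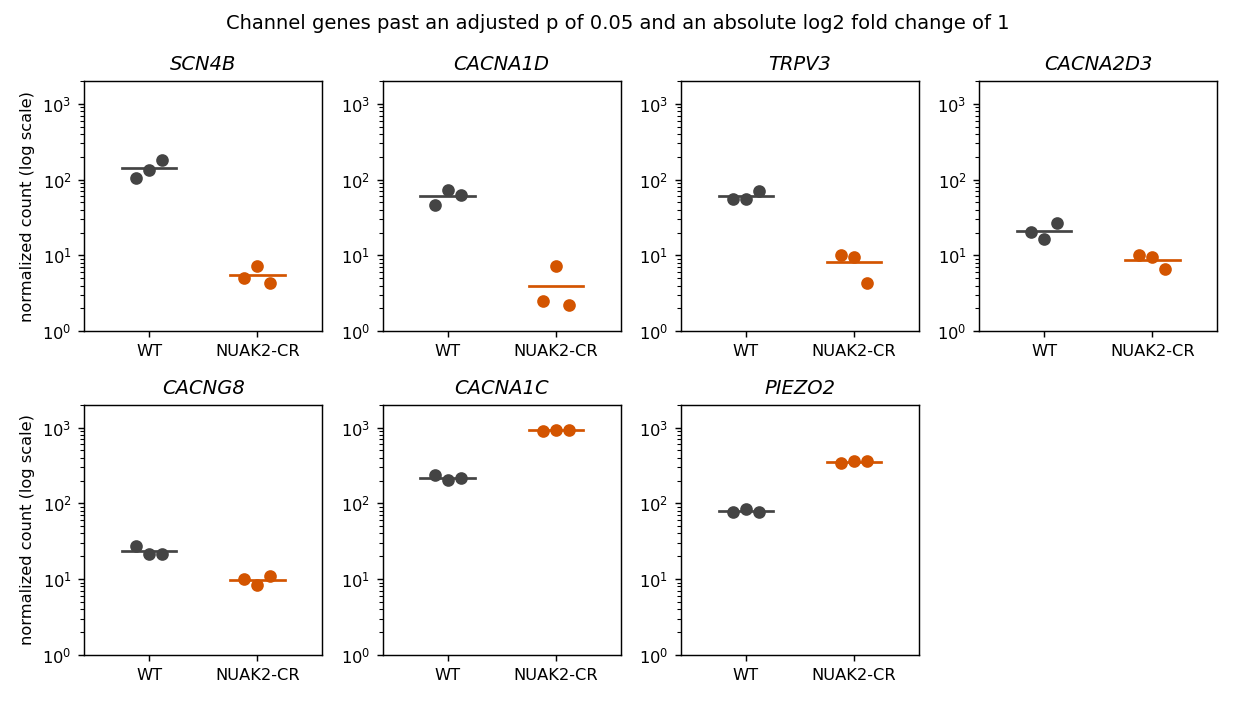
Normalized counts (log scale) of 7 of the 8 channel genes called with a log2 fold change beyond 1 in either direction, with one point per library and a line at the mean of 3 libraries in WT (grey) and NUAK2-CR (orange). In none of the 7 genes do the groups overlap, but the genes were chosen by their call and fold change in these same libraries. Over all tested genes, 61.4% had no overlap. SCN4B, CACNA1D, TRPV3 and CACNA2D3 passed the filter through the WT libraries alone. CACNA1C and PIEZO2 show the tightest replicates.

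**Figure D2:**
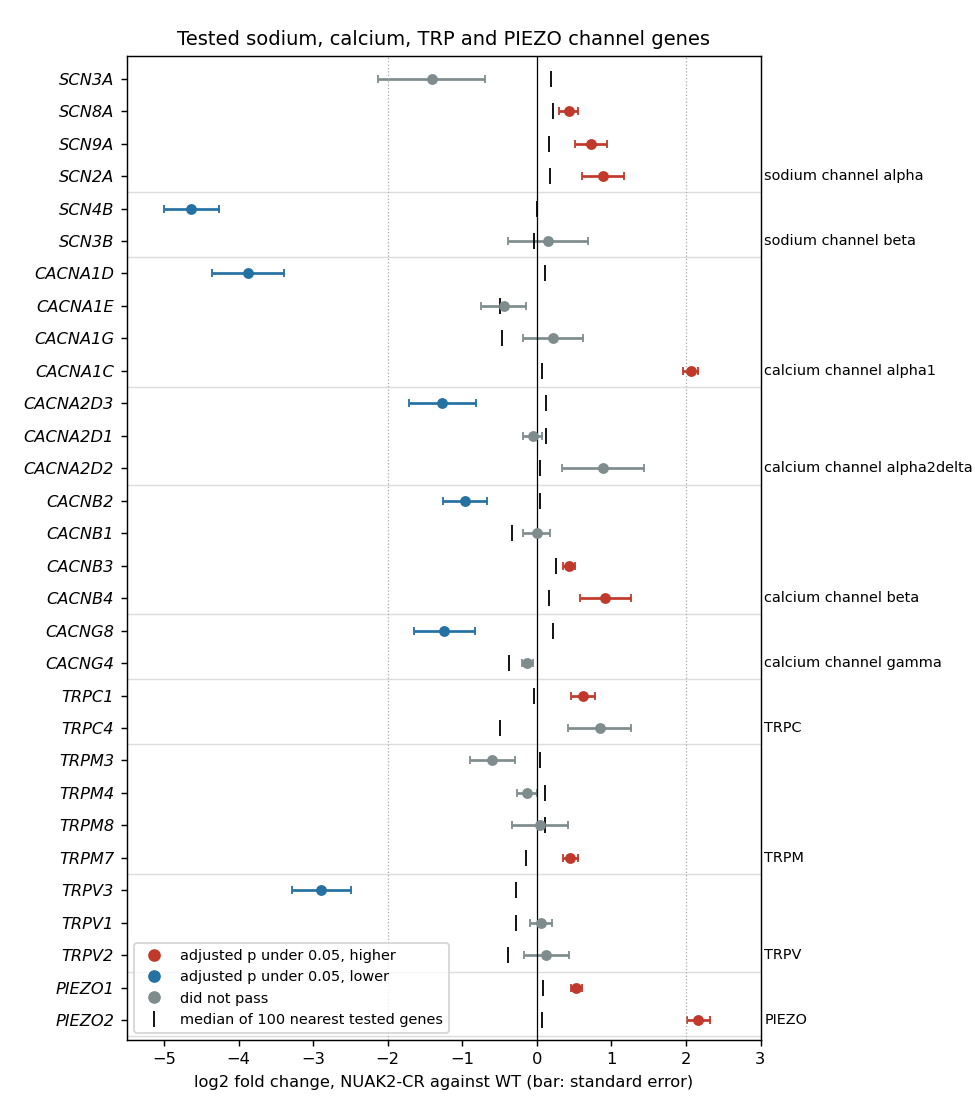
Log2 fold change of 30 of the 32 tested channel genes in NUAK2-CR against WT, grouped by family, with bars for the standard error and colours for the call at an adjusted p-value of 0.05. Black ticks give the median over the 100 tested genes nearest on the same chromosome, which lie between -0.49 and 0.26, and dotted lines mark -2 and 2.

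Among the pore-forming sodium channel genes, 4 of 10 were tested, and 3 of them were higher in NUAK2-CR, where 26.3% of all tested genes were higher. SCN8A, whose channel drives firing at the axon initial segment and nodes of Ranvier, was the most abundant of the family. It had 341, 302 and 312 normalized counts in WT against 483, 403 and 401 in NUAK2-CR, with a log2 fold change of 0.43 ± 0.13 (SE, edgeR adjusted p = 0.0117). The tested genes nearest to SCN8A on chromosome 12 had a median of 0.22, which would leave it at 0.21. SCN9A, the channel of pain-sensing neurons, went from 93.6 ± 17.0 normalized counts in WT (SD, n = 3) to 155 ± 24.2 in NUAK2-CR (SD, n = 3), and its log2 fold change was 0.72 ± 0.21 (SE, edgeR adjusted p = 0.0114). For SCN2A, a channel of excitatory neurons, the values were 44.5, 54.0 and 43.0 in WT and 109, 59.1 and 94.4 in NUAK2-CR. The lowest NUAK2-CR library lay close above the highest WT library, and the log2 fold change was 0.89 ± 0.28 (SE, edgeR adjusted p = 0.0181). This call was lost when WT replicate 3 (adjusted p = 0.0535) was left out, and likewise for NUAK2-CR replicate 1 (0.0798) and 3 (0.0564). SCN3A, a channel of the fetal brain, had 28, 11 and 21 counts in the WT libraries against 10, 6 and 0 in the NUAK2-CR libraries, and its log2 fold change of -1.41 ± 0.72 (SE) did not pass the test (edgeR adjusted p = 0.117).

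Levels of different genes were compared as RPKM, counts divided by the length of the canonical transcript and by library size. The summed RPKM of the 10 sodium channel alpha genes was 1.20 ± 0.0655 in WT and 1.76 ± 0.230 in NUAK2-CR (SD, n = 3 each), without overlap between the groups. SCN8A made up 61.2 ± 2.37% of this sum in WT and 56.4 ± 1.30% in NUAK2-CR (SD, n = 3 each), SCN9A 21.3% and 24.1%, and SCN2A between 10.6% and 14.6% and between 11.1% and 17.5%. The order SCN8A, SCN9A, SCN2A was thus the same in both groups, with distances larger than the spread between libraries.

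The beta subunit SCN4B, which is disulfide-linked to alpha subunits and associated with resurgent sodium current, showed the largest decrease of the tested channel genes. Normalized counts stood at 104, 136 and 184 in WT against 5.08, 7.24 and 4.39 in NUAK2-CR. Every NUAK2-CR library was thus far below every WT library, and the raw counts in NUAK2-CR were 4, 6 and 4. The log2 fold change was -4.63 ± 0.37 (SE, edgeR adjusted p = 4.99e-07), a 25.3-fold lower mean. SCN3B had few reads and overlapping groups, with a log2 fold change of 0.15 ± 0.53 (SE). By RPKM, SCN4B made up 14.8 ± 3.93% of the beta subunit sum in WT and 0.801 ± 0.236% in NUAK2-CR (SD, n = 3 each). SCN4B lies on chromosome 11 (118133377 to 118152823), and the 100 tested genes nearest to it had a median of -0.00061 on the log2 scale.

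The genes of the pore-forming calcium channel subunits held changes in both directions within one class. CACNA1C encodes the L-type channel of heart, smooth muscle and brain, and CACNA1D a related L-type channel that opens at more negative voltages and serves pacemaking and inner hair cells. CACNA1C had 236, 205 and 215 normalized counts in WT against 899, 925 and 927 in NUAK2-CR. The NUAK2-CR libraries agreed closely with each other and all lay above WT, with a log2 fold change of 2.06 ± 0.10 (SE, edgeR adjusted p = 8.29e-09) or a 4.19-fold higher mean. CACNA1D had 45.8, 72.4 and 62.3 normalized counts in the WT libraries against 2.54, 7.24 and 2.20 in the NUAK2-CR libraries. The NUAK2-CR values rest on 2, 6 and 2 counts, and the log2 fold change was -3.87 ± 0.48 (SE, edgeR adjusted p = 2.3e-05). The exons of CACNA1D share 1399 bases with those of CHDH on the opposite strand, and CHDH rose by 0.92 on the log2 scale. The methods give default settings for featureCounts, which take no account of strand, so reads from the shared stretch cannot be assigned to either gene by strand, and their part in the result was not tested.

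By RPKM, CACNA1C and CACNA1D together were at 0.596 ± 0.00779 in WT and 1.79 ± 0.0340 in NUAK2-CR (SD, n = 3 each), a 3.00-fold higher sum. CACNA1D held 22.1%, 34.1% and 29.8% of this pair in WT against 0.413%, 1.13% and 0.346% in NUAK2-CR. Over all 10 alpha1 genes the sum was 0.868 ± 0.0616 in WT and 2.02 ± 0.0810 in NUAK2-CR (SD, n = 3 each). CACNA1C went from 49.2 ± 6.89% to 88.0 ± 2.56% of this sum (SD, n = 3 each). Its RPKM within the alpha1 sum of each library is drawn in the plot of family make-up. The 100 tested genes nearest to CACNA1C had a median log2 fold change of 0.08, and those nearest to CACNA1D 0.12.

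**Figure D3:**
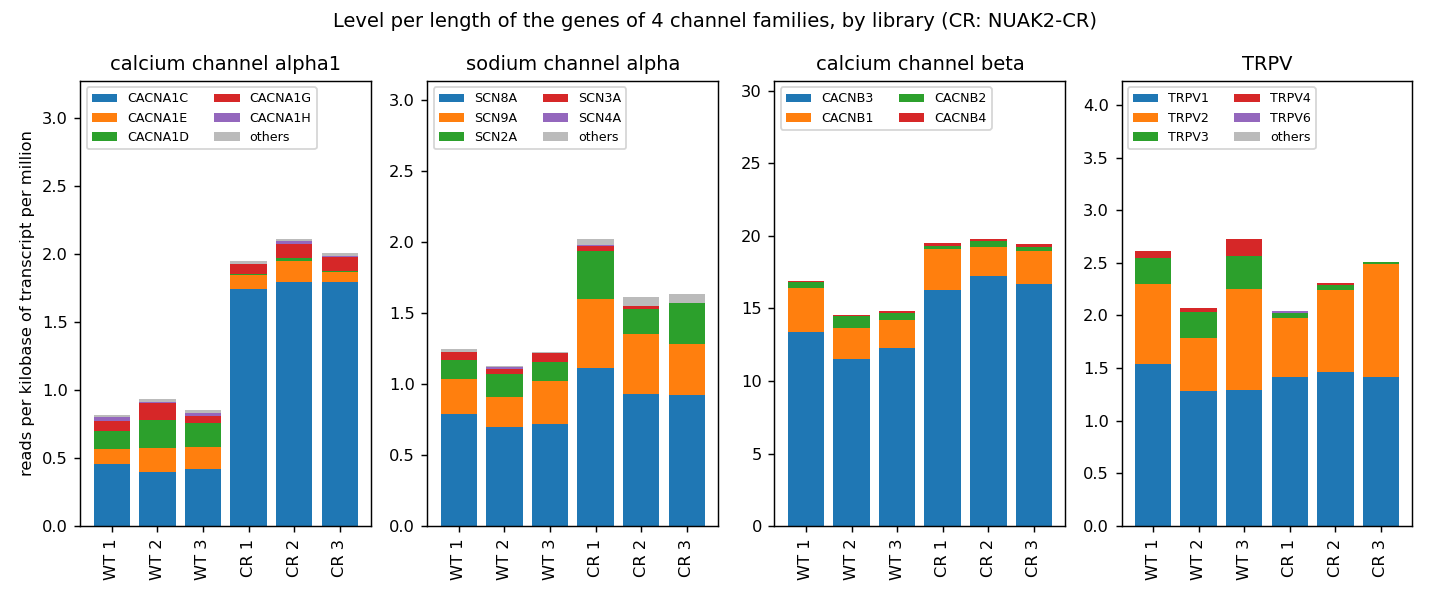
Level per length (RPKM, from 0) of the genes of 4 channel families in each of the 6 libraries, stacked by gene. CACNA1C takes most of the calcium channel alpha1 bar in all NUAK2-CR libraries, while the TRPV3 part of the TRPV bar is thin there and CACNB3 leads the calcium channel beta bar in all 6 libraries.

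The DNA before the start sites of the 2 L-type genes is shown because the genes moved in opposite directions while both windows are rich in G and C. The windows are the 250 bases upstream of a RefSeq start (GRCh38.p14), and capitals mark the GC box GGGCGG on either strand, with overlapping matches counted.
CACNA1C, chr12:2052737-2052986, plus strand: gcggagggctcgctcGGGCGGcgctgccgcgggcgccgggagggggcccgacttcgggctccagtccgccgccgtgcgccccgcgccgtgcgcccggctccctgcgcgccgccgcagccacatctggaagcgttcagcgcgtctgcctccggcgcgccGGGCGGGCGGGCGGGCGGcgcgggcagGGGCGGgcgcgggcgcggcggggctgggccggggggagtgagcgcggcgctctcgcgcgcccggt
CACNA1D, chr3:53494361-53494610, plus strand: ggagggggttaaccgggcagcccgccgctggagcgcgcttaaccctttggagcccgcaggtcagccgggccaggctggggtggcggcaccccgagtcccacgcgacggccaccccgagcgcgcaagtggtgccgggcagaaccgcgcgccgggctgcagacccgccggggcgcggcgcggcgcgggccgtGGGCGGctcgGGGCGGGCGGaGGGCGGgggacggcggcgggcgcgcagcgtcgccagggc
The GC content was 85.6% for CACNA1C and 81.6% for CACNA1D, against a median of 64.4% over the windows of tested genes. GGGCGG occurred 6 times in the CACNA1C window and 4 times in the CACNA1D window, and 42.6% of all 35116 windows and 61.3% of those of tested genes held at least one match. Neither window held TATAAA (10.7% of all windows), CATTCC, the core recognised by TEAD factors (11.9%), or TGANTCA, recognised by AP-1 (6.57%), on either strand. The CACNA1C start lies inside the annotated gene span (chromosome 12, 1970780 to 2697950), and counts per gene do not show which start was used.

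The other tested alpha1 genes did not pass the test. CACNA1E, the R-type channel, had a log2 fold change of -0.44 ± 0.30 (SE), and its 100 nearest tested genes on chromosome 1 had a median of -0.49. CACNA1G, a T-type channel, had 0.22 ± 0.40 (SE), with a median of -0.46 around it on chromosome 17. The further T-type genes CACNA1H and CACNA1I reached at most 15 and 4 counts in any library.

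Of the intracellular calcium channel beta subunits, which bring alpha1 subunits to the membrane, all 4 were tested. CACNB3 was the most abundant and held 80.4% of the family's summed RPKM in WT and 85.4% in NUAK2-CR. It went from 1364 ± 103 normalized counts in WT (SD, n = 3) to 1839 ± 50.6 in NUAK2-CR (SD, n = 3), and its log2 fold change was 0.43 ± 0.08 (SE, edgeR adjusted p = 0.000507). The tested genes nearest to CACNB3 on chromosome 12 had a median of 0.26. CACNB4 was higher, with a log2 fold change of 0.92 ± 0.34 (SE, edgeR adjusted p = 0.0374), and CACNB2 was lower, with -0.97 ± 0.30 (SE, edgeR adjusted p = 0.0146). The CACNB4 call was lost without WT replicate 1 (adjusted p = 0.0710), WT replicate 2 (0.128), NUAK2-CR replicate 1 (0.115) or 3 (0.0800). CACNB2 had 92.3, 188 and 112 normalized counts in the WT libraries against 54.6, 85.6 and 59.3 in the NUAK2-CR libraries, and its call was lost when WT replicate 2 was left out (log2 fold change -0.61, adjusted p = 0.0879), and also for NUAK2-CR replicate 1 (adjusted p = 0.0609) and 3 (0.0528). CACNB1 had a log2 fold change of -0.0014 ± 0.18 (SE) and overlapping groups.

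CACNA2D1, an alpha2delta subunit that binds gabapentin, made up 93.9% of the alpha2delta sum in WT and 96.4% in NUAK2-CR. It had 1021 ± 207 (SD, n = 3) and 980 ± 95.4 (SD, n = 3) normalized counts and did not pass the test. CACNA2D3 had 20.6, 16.4 and 26.9 normalized counts in the WT libraries against 10.2, 9.65 and 6.59 in the NUAK2-CR libraries, with no overlap. Its log2 fold change of -1.27 ± 0.45 (SE, edgeR adjusted p = 0.0313) was no longer called without WT replicate 1 (adjusted p = 0.0694), WT replicate 3 (0.111), NUAK2-CR replicate 1 (0.0590), NUAK2-CR replicate 2 (0.0668) or 3 (0.109), nor with DESeq2 (0.106), without the filter (0.0613) or with the replicate number as a block (0.0581). CACNA2D2 had 0.89 ± 0.55 (SE) and was not called.

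CACNG4, whose protein accompanies AMPA receptors, had the highest RPKM of the channel genes in WT, ahead of PIEZO1, with 32.7 in WT and 29.9 in NUAK2-CR, where PIEZO1 was at 31.4. It had 4788, 4330 and 4076 normalized counts in WT against 3993, 3906 and 4157 in NUAK2-CR. The groups overlapped, and the log2 fold change of -0.13 ± 0.07 (SE) did not pass the test (edgeR adjusted p = 0.155). CACNG8, of the same subgroup, had 27.2, 21.2 and 21.5 normalized counts in the WT libraries against 10.2, 8.44 and 10.98 in the NUAK2-CR libraries, a log2 fold change of -1.24 ± 0.41 (SE, edgeR adjusted p = 0.0226). This call was lost with DESeq2 (adjusted p = 0.0914) and when WT replicate 1 (0.0998), or else NUAK2-CR replicate 1 (0.0586) or 2 (0.0771), was left out.

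The TRPC genes encode cation channels that open downstream of phospholipase C. TRPC1 was the most abundant and went from 254 ± 53.3 normalized counts in WT (SD, n = 3) to 389 ± 24.2 in NUAK2-CR (SD, n = 3), and its log2 fold change was 0.62 ± 0.16 (SE, edgeR adjusted p = 0.00559). TRPC4 had 0.84 ± 0.42 (SE) and passed only when NUAK2-CR replicate 1 was left out (log2 fold change 1.15, adjusted p = 0.0389).

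Of the TRPM group, TRPM7, a magnesium- and calcium-permeable channel fused to a kinase domain, held 83.5% of the summed RPKM in WT and 88.7% in NUAK2-CR. It was higher in NUAK2-CR, with 3173, 4181 and 3872 normalized counts in the WT libraries against 5638, 4612 and 5091 in the NUAK2-CR libraries and a log2 fold change of 0.45 ± 0.10 (SE, edgeR adjusted p = 0.00259). TRPM4, a calcium-activated channel for monovalent cations, had -0.13 ± 0.14 (SE), the cold sensor TRPM8 had 0.04 ± 0.37 (SE) and TRPM3 had -0.60 ± 0.30 (SE). None of these 3 passed the test, although TRPM3 did when WT replicate 3 was left out (log2 fold change -0.81, adjusted p = 0.0391).

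TRPV3, a warmth-gated channel known from keratinocytes, had 55.1, 55.0 and 69.9 normalized counts in the WT libraries against 10.2, 9.65 and 4.39 in the NUAK2-CR libraries. All NUAK2-CR libraries lay below WT, at 8, 8 and 4 raw counts, and the log2 fold change was -2.89 ± 0.39 (SE, edgeR adjusted p = 5.1e-05). TRPV1, the capsaicin and heat receptor, lies next to it on chromosome 17 (TRPV3 at 3510502 to 3557812, TRPV1 at 3565446 to 3609411) and had 214 ± 22.9 (SD, n = 3) normalized counts in WT and 223 ± 4.12 in NUAK2-CR (SD, n = 3). Its log2 fold change of 0.06 ± 0.15 (SE) did not pass the test, and part of its exons is shared with SHPK on the same strand, at a log2 fold change of -0.0047. The tested genes nearest to TRPV3 had a median log2 fold change of -0.28, which would leave it at -2.61. TRPV2 had 0.13 ± 0.30 (SE) with overlapping groups. TRPV3 made up between 9.5% and 11.97% of the TRPV sum in the WT libraries and between 0.788% and 2.24% in the NUAK2-CR libraries.

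The window before the TRPV3 start is shown because, of the 4 windows printed here, it alone held matches to motifs other than the GC box. Capitals mark, from the left, a match to the TEAD core on the opposite strand, a match to the AP-1 motif, and a GC box.
TRPV3, chr17:3557813-3558062, minus strand: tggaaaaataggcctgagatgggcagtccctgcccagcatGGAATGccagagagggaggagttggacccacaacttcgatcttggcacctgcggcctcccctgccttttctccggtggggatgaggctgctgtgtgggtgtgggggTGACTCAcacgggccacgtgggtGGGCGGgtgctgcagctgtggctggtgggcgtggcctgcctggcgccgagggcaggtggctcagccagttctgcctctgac
Its GC content was 65.2%, close to the median of 64.4% over tested genes, and the ratio of observed to expected CpG was 0.351. Such matches occur in 11.9% (CATTCC), 6.57% (TGANTCA) and 42.6% (GGGCGG) of all windows, and are letters in the sequence, not sites shown to be bound.

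The mechanically gated channel genes PIEZO1 and PIEZO2 were both higher in NUAK2-CR. PIEZO1, which senses shear and stretch in many cell types, was the more abundant by far, with 6994, 6162 and 6656 normalized counts in the WT libraries against 9320, 10130 and 9098 in the NUAK2-CR libraries. The groups did not overlap, and the log2 fold change was 0.53 ± 0.07 (SE, edgeR adjusted p = 6.12e-05). A stretch of 59 exon bases is shared with CTU2 on the opposite strand, which had a log2 fold change of 0.07. PIEZO2, the channel of touch and proprioception, had 76.4, 84.9 and 76.3 normalized counts in the WT libraries against 340, 362 and 366 in the NUAK2-CR libraries. The NUAK2-CR libraries again lay close together and far above WT, with a log2 fold change of 2.17 ± 0.15 (SE, edgeR adjusted p = 1.63e-07) or a 4.49-fold higher mean. PIEZO2 made up 0.890 ± 0.111% of the PIEZO RPKM in WT and 2.72 ± 0.168% in NUAK2-CR (SD, n = 3 each). The tested genes nearest to PIEZO1 and PIEZO2 had medians of 0.08 and 0.06.

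The PIEZO2 window is shown as the second gene with a rise of over 2 on the log2 scale, for comparison with CACNA1C, with the GC box in capitals.
PIEZO2, chr18:11149570-11149819, minus strand: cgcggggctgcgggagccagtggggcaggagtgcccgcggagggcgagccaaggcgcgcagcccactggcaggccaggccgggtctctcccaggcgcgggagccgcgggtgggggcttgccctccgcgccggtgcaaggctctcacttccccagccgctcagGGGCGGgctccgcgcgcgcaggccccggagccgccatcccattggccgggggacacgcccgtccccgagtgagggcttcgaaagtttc
It held 1 GC box at a GC content of 76.8%, and none of the other 3 motifs. The window listed for SCN4B is not printed because annotated exons cover it entirely.

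The remaining 30 members did not pass the filter. No count was found in any library for 9 of them, namely CACNA1B, CACNA1F, CACNA1S, CACNG3, CACNG5, SCN10A, SCN11A, TRPM1 and TRPV5, and a count of 0 allows up to 3 counts in a library. CACNG2, SCN2B, SCN7A, TRPM5 and TRPV6 had at most 2 counts. The other 16, among them CACNA1A, CACNA1H, CACNA1I, CACNA2D4, CACNG1, CACNG6, CACNG7, SCN1A, SCN4A, TRPC5, TRPC6, TRPC7, TRPM2, TRPM6 and TRPV4, had at most 18 counts in any library. When genes with at least 1 count were all tested, 4 of the 21 untested members with reads had an adjusted p-value under 0.05. The called share among all genes outside the filter was not taken, so this count has no background to be set against. CACNA2D4, an alpha2delta subunit known from the retina, had 8, 14 and 8 counts in WT and none in NUAK2-CR, at least 2.56-fold lower when 3 counts per library are allowed in NUAK2-CR (edgeR adjusted p = 0.00294). The osmosensitive channel TRPV4 had 12, 4 and 18 counts in the WT libraries against 0, 2 and 0 in the NUAK2-CR libraries (edgeR adjusted p = 0.0153). TRPC7 had 2, 5 and 7 counts in WT and none in NUAK2-CR (edgeR adjusted p = 0.0456), which DESeq2 did not call (0.0644).

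Genes that act with these channels were examined in 3 lists. Of 19 tested genes of calcium entry, stores and removal, 11 were called, 8 higher and 3 lower in NUAK2-CR, with a median log2 fold change of 0.14, where 54.5% of all tested genes were called and their median was -0.01. The store-operated pore genes ORAI1, ORAI2 and ORAI3 were all higher, by 0.42, 0.36 and 0.75 on the log2 scale, as were the inositol trisphosphate receptor genes ITPR1, ITPR2 and ITPR3, by 0.40, 0.57 and 0.64. The store sensors STIM1 and STIM2 had 0.08 and 0.03 and did not pass the test. Other genes of this list went the other way. RYR2 had -1.16 (edgeR adjusted p = 0.0521) and RYR3 -0.26, neither of them called, and TMCO1 was lower at -0.41 (edgeR adjusted p = 0.00467). The 100 tested genes nearest to TMCO1 on chromosome 1 had a median of -0.54, which would leave it at 0.14. Those nearest to RYR2 and RYR3 had medians of -0.37 and -0.21, which would leave them at -0.79 and -0.045. Among the plasma membrane calcium pumps, ATP2B1 went from 1900 ± 178 normalized counts in WT (SD, n = 3) to 4240 ± 134 in NUAK2-CR (SD, n = 3), and its log2 fold change was 1.16 ± 0.08 (SE, edgeR adjusted p = 1.34e-07). ATP2B2 was lower, at -1.26 ± 0.32 (SE, edgeR adjusted p = 0.00487), and ATP2B4 was lower at -0.98. The tested genes nearest to ATP2B4 on chromosome 1 had a median of -0.39, which would leave it at -0.58. By RPKM, ATP2B4 was at 23.2 in WT and 11.8 in NUAK2-CR, and ATP2B1 at 7.17 and 16.0.

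Of 21 tested channel partners and regulators, 13 were called, 6 higher and 7 lower, with a median of -0.03, where 54.5% of all tested genes were called. STAC2, an adaptor of L-type calcium channels, had 108, 55 and 39 counts in the WT libraries against 1, 3 and 4 in the NUAK2-CR libraries, a log2 fold change of -4.10 ± 0.48 (SE, edgeR adjusted p = 1.63e-05). STAC2 passed the filter through the WT libraries alone, so that its direction was set in part by the filter. CACHD1, an alpha2delta-like protein, went from 1898 ± 129 normalized counts in WT (SD, n = 3) to 691 ± 30.7 in NUAK2-CR (SD, n = 3), and its log2 fold change was -1.46 ± 0.08 (SE). The tested genes nearest to CACHD1 on chromosome 1 had a median of -0.41, which would leave it at -1.05. MDFI, a relative of the PIEZO-binding protein MDFIC, rose by 1.41 ± 0.09 (SE) on the log2 scale, while MDFIC itself had 0.15 and did not pass. PRRT2, a membrane protein that binds sodium channels, rose by 1.34 ± 0.16 (SE). STAC3, needed for muscle excitation-contraction coupling, had 1.37 ± 0.46 (SE, edgeR adjusted p = 0.0233), a call that was lost without WT replicate 2 (adjusted p = 0.0600), WT replicate 3 (0.0741), NUAK2-CR replicate 1 (0.0840) or 2 (0.0784). Of 9 further TRP and mechanically gated channel genes tested, 4 were higher and 2 lower, with a median of 0.19, where 26.3% of all tested genes were higher and 28.2% lower. The 2 lower genes were TMEM63C, an osmosensitive channel gene, at -1.87 ± 0.13 (SE, edgeR adjusted p = 1.22e-07), and MCOLN2, an endolysosomal TRP channel, at -1.51 ± 0.15 (SE, edgeR adjusted p = 2.92e-06). The tested genes nearest to MCOLN2 on chromosome 1 had a median of -0.37, which would leave it at -1.15. The polycystin genes PKD1 and PKD2 were both higher, by 0.65 and 0.89.

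**Figure D4:**
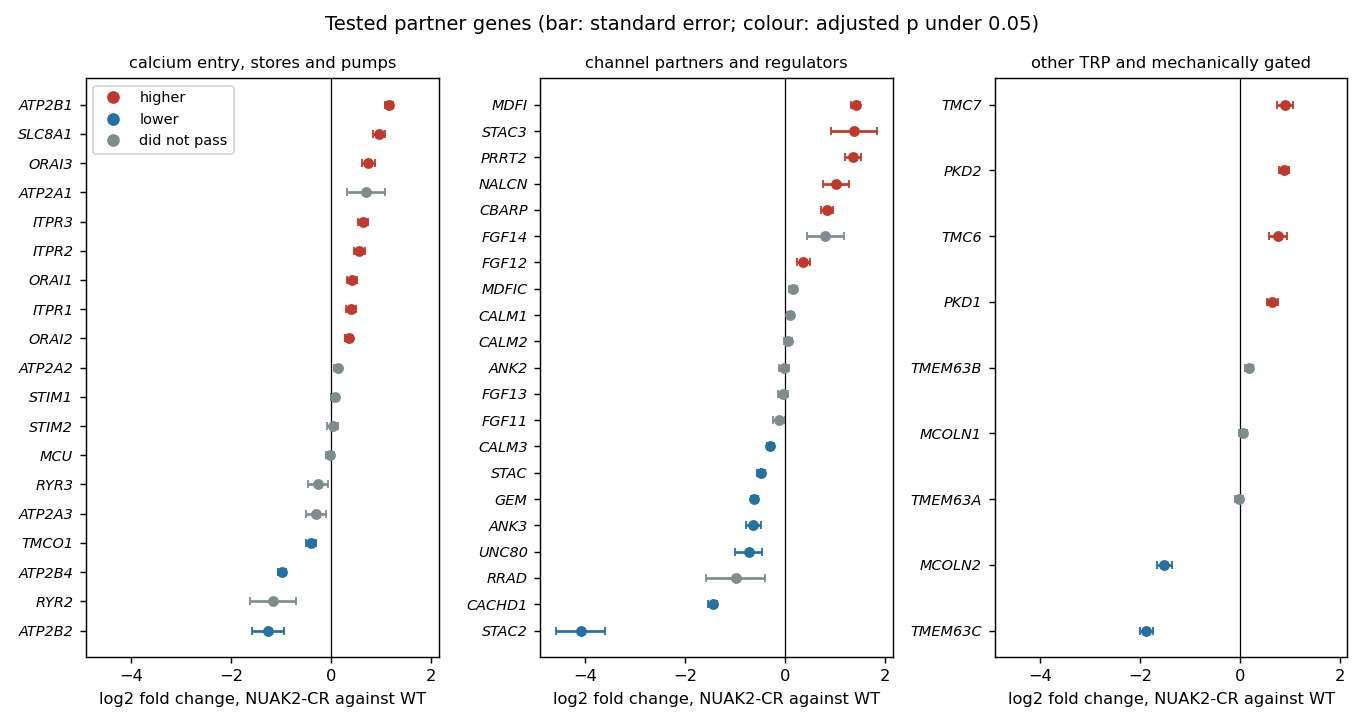
Log2 fold change in NUAK2-CR against WT of the tested genes of 3 partner lists, with bars for the standard error and colours for the call at an adjusted p-value of 0.05. STAC2, which passed the filter through the WT libraries alone, lies at -4.10, and all 3 ORAI and all 3 ITPR genes lie to the right of 0. RYR2, RYR3 and TMCO1 are among the genes to its left.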

How the data were processed

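Per the labels and the methods, reads were trimmed with Trimmomatic, aligned to hg38 with HISAT2 and counted with featureCounts, and the authors deposited raw counts per NCBI gene identifier for 6 libraries. The kit was a stranded one, but the methods give default counting settings, which take no account of strand, so genes with overlapping exons are uncertain. Tool versions and the annotation are not given in the sources used here. In the table a value of 2 occurred 5897 times and a value of 1 2444 times, so low counts may include both mates of a pair, and floors of 3 counts cover counting error only. Symbols were found for 27745 of the 28395 identifiers through RefSeq (GRCh38.p14). The members and gene lists were chosen with earlier results of these data known.

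Genes were filtered with filterByExpr (at the default, about 10 counts in at least 3 libraries), normalized by TMM and tested with edgeR 4.0.16 in R 4.3.3 (glmQLFit, quasi-likelihood F test, prior count 0.125, Benjamini-Hochberg adjustment over 14873 genes). Standard errors are the log2 fold change divided by the root of F. Normalized counts are scaled to the mean effective library size. RPKM used GENCODE v44 canonical transcript lengths. Neighbour medians cover the 100 tested genes nearest by start. The code was tested on simulated data.

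The naming rule took the called genes whose log2 fold change went beyond 1 in either direction, with at most 5 such genes per partner list. Most other tested members were also named with their log2 fold change, many of them with values by library or mean and SD. Most members outside the filter were named with a limit on their counts. Further partner genes were named after their values were seen. Alternatives were DESeq2 1.42.0, other filters and scalings, a replicate block, a prior count of 2, thinning to 29648445 counts and leaving out each library. Promoter windows were matched for 42 of the 62 members. Tables and plots were made in Python 3.11.15 (pandas 2.3.3, matplotlib 3.10.9). A few members are counted but not reported here by name.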

Additional observations from a re-analysis of the deposited data

How the results depend on the processing

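Of the 17 called channel genes, 12 kept their call and direction under every alternative that gave a value, and the other 5, CACNA2D3, CACNG8, CACNB2, CACNB4 and SCN2A, each lost it without at least 3 of the libraries. Among the 12, SCN4B, CACNA1D and TRPV3 passed the filter through the WT libraries alone. They gave no value when at least 10 counts were required in every library. With no filter beyond 1 count, SCN4B was at -4.64 (edgeR adjusted p = 7.05e-15) and CACNA1D at -3.88 (3.2e-09). TRPV3 lay between -3.07 and -2.58 over the 13 alternatives that gave a value. Their place among the 32 tested members still rests on the WT libraries. The number called was 8 when a log2 fold change beyond 1 was also required. The number of lower genes was 1 when at least 10 counts were required in every library, which removes genes low in one group by construction, and lay between 3 and 6 with one library left out, with 3 without NUAK2-CR replicate 1. The number past the study's threshold was 8 with DESeq2, 9 with no filter beyond 1 count and 2 with at least 10 counts in every library, against 5. With the replicate number as a block, 16 members were called, with CACNA2D3 lost (adjusted p = 0.0581). Same-numbered libraries did not deviate together (correlations 0.04, -0.04 and 0.05), so the numbers were not taken as pairs. Genes that were not called changed sign: CACNB1, at -0.0014, was 0.0088 with DESeq2, 0.0074 with RLE scaling, 0.021 with the block and 0.063 after thinning. With one library left out CACNB1 ranged from -0.13 to 0.23, CACNA1G from -0.015 to 0.60, CACNA2D1 from -0.17 to 0.11, SCN3B from -0.22 to 0.78, TRPM8 from -0.21 to 0.32 and TRPV2 from -0.13 to 0.35. The cause was not tested. For the 30 untested members, no difference was tested under the filter, and low depth and absent expression cannot be told apart.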

Other observations

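Several channel genes lie in clusters of paralogs, and neighbours in a cluster had different values. On chromosome 2, SCN3A (165087526 to 165204050) had a log2 fold change of -1.41 ± 0.72 (SE, not called) and SCN2A (165239414 to 165392304), which follows it, 0.89 ± 0.28 (SE), while SCN9A (166195185 to 166375987) had 0.72 ± 0.21 (SE), and SCN1A and SCN7A, in the same cluster, had at most 6 and 1 counts in any library. On chromosome 11, SCN2B, next to SCN4B, had at most 2 counts. On chromosome 17, CACNG4 held the reads of its cluster, with CACNG5 at 0 counts and CACNG1 at 9 or fewer in every library. Differences between paralogs were not tested.

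The GC content of the 250 bases before RefSeq starts had a median of 65.2% over the windows of the 24 tested members with a window and 58.2% over those of the 18 untested members with one, against 64.4% over the windows of all tested genes. Several genes have more than one window, and these values are a description.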
